A study of Mus musculus with 12 samples.

Results

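The nuclear-encoded genes of oxidative phosphorylation were followed in female primordial germ cells of the mouse at stage E14.5. They were taken from the deposited count table by symbol: every row whose name starts with Nduf, Uqcr or Atp5, the rows Sdha to Sdhd, and the rows that start with Cox and 4 to 8 followed by a, b or c, without pseudogenes marked -ps. This gave 90 of 35976 rows: 45 named for complex I, 4 for complex II, 8 for complex III, 16 for complex IV and 17 for complex V. Oct4-GFP-sorted germ cells of 4 groups were sequenced in 3 libraries each. The groups were wild type (WT), Tet1HxD/HxD with a catalytically dead TET1 (HxD), Tet1V/V with a TET1 said to stall once it has made 5-hydroxymethylcytosine (V), and Tet1-/- (KO). The Oct4-GFP reporter was common to all 4 groups. Nothing in the labels ties libraries to embryos or litters, so p-values reflect only the variation among the libraries, part of which may be technical. In sorted bulk cells, fewer cells of a type and less RNA per cell cannot be told apart.

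Oxidative phosphorylation is the last stage of respiration, in the inner mitochondrial membrane. Complexes I to IV pass electrons from NADH and succinate to oxygen and, except for complex II, pump protons, and complex V, the ATP synthase, uses the returning protons to make ATP. Most subunits are encoded in the nucleus and the rest in the mitochondrial genome. Germ cells of the fetal ovary enter meiosis at about the stage sampled here. TET1 oxidizes 5-methylcytosine in DNA, and the comparisons ask whether transcripts of this pathway differ when TET1 is absent, inactive or stalled.

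Some members of the symbol rule are not subunits of the complex they are named for. Ndufaf1 to Ndufaf7 are 7 assembly factors of complex I, Ndufa4 is now placed with complex IV, Cox7a2l is known for joining complexes into supercomplexes, and Atp5s and Atp5sl are not subunits of the ATP synthase core. Cox4i1, Cox4i2 and Cyc1 are subunits that the rule does not reach. They were kept apart in a list of 6 genes outside the rule, with Cycs and Cyct, which encode the electron carrier cytochrome c, and Atpif1, an inhibitor of the ATP synthase.

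Total counts were between 18471158 and 29495313 per library, so the limit that a count of 0 allows (3 counts, counting error only) was 0.0996 to 0.168 CPM (counts set to the same library size with TMM factors). Tet1 itself, summed over the whole gene, was at 91.4, 180 and 215 CPM in WT at 227, 222 and 286 CPM in HxD, at 226, 197 and 192 CPM in V and at 131, 158 and 80.8 CPM in KO. All KO libraries were below all HxD and V libraries and below WT2 and WT3, and WT1 alone lay within the KO range. The labels do not say which part of Tet1 the knockout lacks. The 8 germ cell markers of a fixed list summed to between 2949 and 3875 CPM in every library, but did not all stay level. Dazl was called lower in each mutant (log2 differences of -1.09, -1.15 and -1.22 in HxD, KO and V), Tfap2c and Sox2 higher in KO (1.07 and 0.94), and Pou5f1 higher in V (1.14). The libraries differed in the number of genes with a count, from 12568 in KO3 to 17614 in HxD3.

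The promoters of the members held the letters of 4 known motifs in a larger share of windows than those of tested genes did. Promoter windows of 300 bases (250 before to 50 after the start site; RefSeq, assembly GRCm38.p6) were found for 73 of the 90 members, in 78 windows. The letters GCATGCGC, the core of the site of NRF1, a regulator of respiratory chain genes, were on either strand in 15.4% of member windows. They were in 4.79% of 15192 windows of tested genes and in 2.71% of all 32851 windows. AAGATGGC, the core of the YY1 site, was in 11.5% of member windows against 3.91% and 2.75%. AAGGTCA, the core of the site of the estrogen-related receptors, was in 10.3% against 3.48% and 4.72%, and CCGGAAG, of the ETS family, in 21.8% against 15.5% and 8.86%. The median number of CpG in a window was 19 for the members and 19 for tested genes. These are matches of letters and not evidence of binding. Of the 4 windows shown, Ndufa8, Ndufc1 and Uqcrfs1 belong to members with low p-values, and Sdhb to a member that holds both NRF1 and ETS letters. Matches are in capitals and each window is written 5′ to 3′ along its gene. Ndufa8 (chr2:36049289-36049588, minus strand) has the NRF1 letters at position -8 from the start site, Ndufc1 (chr3:51408906-51409205, minus strand) has the YY1 letters at position 22, Sdhb (chr4:140961021-140961320, plus strand) has NRF1 and then ETS letters, and Uqcrfs1 (chr13:30545267-30545566, minus strand) has none of the 4.
Ndufa8: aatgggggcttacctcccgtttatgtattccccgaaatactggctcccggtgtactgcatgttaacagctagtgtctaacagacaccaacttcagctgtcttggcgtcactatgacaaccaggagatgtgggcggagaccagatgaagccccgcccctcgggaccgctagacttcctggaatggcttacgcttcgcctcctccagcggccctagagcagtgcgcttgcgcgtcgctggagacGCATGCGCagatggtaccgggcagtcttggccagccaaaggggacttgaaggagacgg
Ndufc1: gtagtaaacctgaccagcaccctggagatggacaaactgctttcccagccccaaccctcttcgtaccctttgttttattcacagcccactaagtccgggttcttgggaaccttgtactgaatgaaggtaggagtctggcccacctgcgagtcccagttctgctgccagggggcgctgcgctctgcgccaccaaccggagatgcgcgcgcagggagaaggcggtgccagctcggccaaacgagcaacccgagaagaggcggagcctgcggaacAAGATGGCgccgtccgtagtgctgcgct
Sdhb: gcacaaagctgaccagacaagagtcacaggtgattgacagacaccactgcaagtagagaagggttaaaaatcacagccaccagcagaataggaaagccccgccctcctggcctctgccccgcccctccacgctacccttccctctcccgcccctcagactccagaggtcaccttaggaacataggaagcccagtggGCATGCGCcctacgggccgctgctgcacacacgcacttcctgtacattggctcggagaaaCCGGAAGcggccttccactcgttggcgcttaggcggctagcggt
Uqcrfs1: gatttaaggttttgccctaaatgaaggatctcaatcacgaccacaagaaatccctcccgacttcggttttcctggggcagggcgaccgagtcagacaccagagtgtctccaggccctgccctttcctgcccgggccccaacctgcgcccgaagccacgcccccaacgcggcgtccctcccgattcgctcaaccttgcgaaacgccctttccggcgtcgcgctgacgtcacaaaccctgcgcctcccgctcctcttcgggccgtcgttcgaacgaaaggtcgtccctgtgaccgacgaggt

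Transcripts of the members made up 1.16% of all counts in KO2 and 1.8% in WT1, the extremes of the 12 libraries. Of the 90 members, 84 had a count in every library and 87 passed the filter on low counts. Cox6a2 and Cox8b, the isoforms known from heart and skeletal muscle, were at 0 in all 12 libraries. Atp5l, the ATP synthase subunit g, had 4 counts in KO2, 24 in V1, 6 in V2 and none elsewhere, and 3 pseudogene copies in the annotation match it over at least 100 bases at 98% identity or more. Per kilobase of exon, the member with the highest mean level was Atp5b, the catalytic beta subunit of ATP synthase, at 1228 CPM per kilobase. By the complex each is named for, the highest of the others were Cox5a at 583.1, Uqcrh at 431 (complex III), Ndufa4 at 362.1 and Sdha at 176.9 CPM per kilobase. Ndufa4 is now placed with complex IV, and Ndufa2, at 332.5, was the next highest named for complex I. Medians on this scale, by complex name, were 93.43 for I, 108.1 for II, 212.4 for III, 146.5 for IV and 216.8 for V. The rows of I include the 7 assembly factors.

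The summed levels of the complexes overlapped between WT and each mutant. Complex I summed to 6235, 4128 and 4160 CPM in WT, 4509, 4815 and 3890 in HxD, 4415, 3437 and 4871 in KO, and 5024, 4543 and 5207 in V. WT1 was the highest of all 12 libraries and KO2 the lowest, and every pair of groups overlapped. Complex V summed to 6611, 5335 and 5611 CPM in WT, 6639, 6305 and 5415 in HxD, 5879, 5333 and 6411 in KO, and 6974, 6665 and 6532 in V. The V libraries lay above all KO libraries here. They did so for complex II as well, at 917.95 to 985.38 CPM in V and 728.45 to 904.93 CPM in KO. The remaining sums, as mean ± SD with n = 3, were 893 ± 140 (WT), 931 ± 130 (HxD), 820 ± 88.4 (KO) and 956 ± 34.6 CPM (V) for complex II, 1294 ± 153, 1329 ± 132, 1243 ± 191 and 1447 ± 60.9 CPM for complex III, and 1826 ± 290, 1831 ± 235, 1784 ± 280 and 2093 ± 253 CPM for complex IV.

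**Figure D1:**
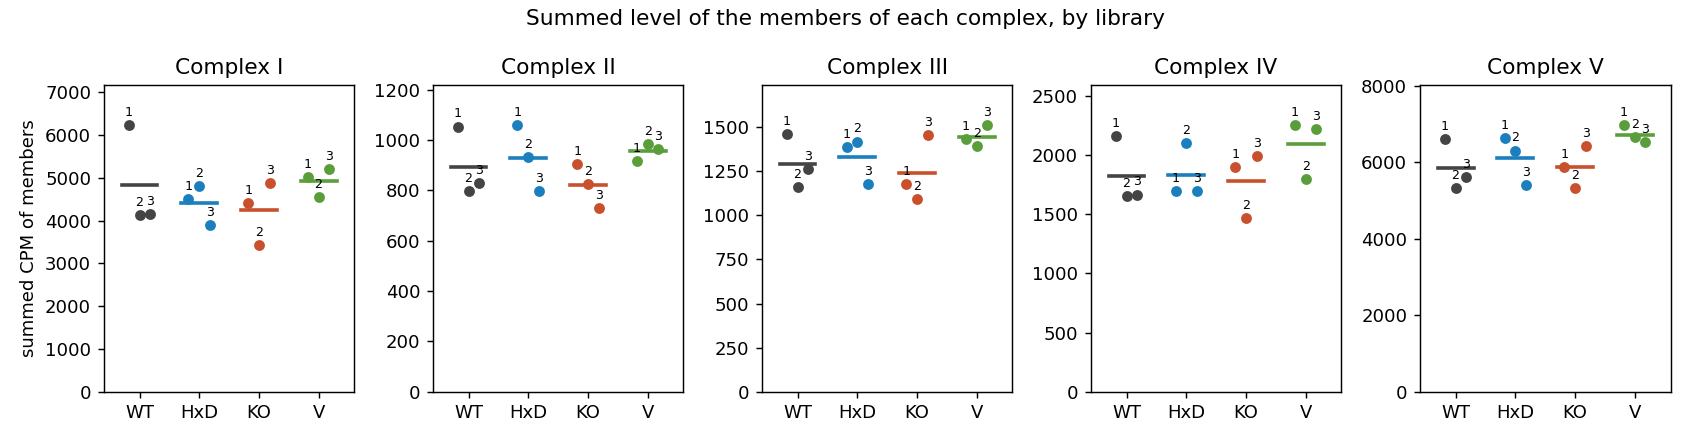
Summed CPM of the members of each complex in each of the 12 libraries, by group; numbers are library replicates and bars are group means. WT1 is the highest library for complex I at 6235 CPM and KO2 the lowest at 3437 CPM.

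WT1 stood apart from WT2 and WT3. It was the highest of the 12 libraries for 35 of 87 tested members, 23 of them of complex I, and KO2 the lowest for 32. The ratio of WT1 to the mean of WT2 and WT3 had a median of 1.42 over the 87 members and exceeded 1.5 for 33 of them (37.9%). Over all 16166 genes tested, with 0.5 CPM added, the median ratio was 0.996 and 19.9% exceeded 1.5. By complex the median ratio was 1.48 (I), 1.65 (II), 1.17 (III), 1.32 (IV) and 1.31 (V). Cytoplasmic ribosomal protein genes also summed highest in WT1, at 69510 CPM against 48840 and 51380 in WT2 and WT3. Markers of other cell types were also measured. The 8 blood markers summed to 26.0, 3.99 and 0.597 CPM in WT1, WT2 and WT3, with 7 of the 8 at 0 in both WT2 and WT3, and to at most 10.7 in HxD, 36.3 in KO and 1.29 in V. KO3 thus had a higher blood sum than WT1. The 10 gonadal somatic markers summed to 6.93 to 23.9 CPM in WT, 2.04 to 9.92 in HxD, 5.05 to 15.5 in KO and 8.04 to 29.99 in V. The 4 immune markers summed to 2.53 to 16.6, 0.746 to 2.46, 0 to 3.55 and 0.996 to 11.5 CPM in the same order. The 4 endothelial markers summed to 2.34, 2.49 and 4.98 CPM in WT1, WT2 and WT3, with WT1 the lowest of the 3. The 3 mesonephros markers summed to 2.95, 2.67 and 2.59 CPM. In HxD, KO and V the endothelial sums were at most 3.58, 2.91 and 3.72 CPM. The mesonephros sums were at most 1.38, 0.29 and 1.91 CPM there. Of the gonadal somatic markers 3 of 10 were at 0 in WT1, 8 in WT2 and 7 in WT3. Outside WT the number at 0 ran from 1 in V1, with the sum of 29.99 CPM, to 8 in HxD1 and KO3. Amhr2 was at 7.04 CPM and Nr5a1 at 4.29 CPM in WT1 and both were at 0 in WT2 and WT3. Lhx9 and Gata4, at 1.96 and 0.378 CPM in WT1, were also at 0 in WT2 and WT3. Wnt4 was at 6.6, 6.99 and 0.637 CPM in WT1, WT2 and WT3. In the same order Wt1 was at 2.3, 0 and 4.94 CPM and Pdgfra at 1.37, 1.595 and 1.35 CPM. Foxl2, Sox9 and Nr2f2 were at 0 in all 3. Of the immune markers 2 of 4 were at 0 in WT1 and 3 in each of WT2 and WT3. Outside WT the number ran from 0 in V1 to 4 in KO3. Csf1r was at 8.59 CPM and Adgre1 at 7.97 CPM in WT1 and at 0 in WT2 and WT3. Cd68 went the other way, at 0 CPM in WT1, 2.53 in WT2 and 4.58 in WT3, and Ptprc was at 0 in all 3. What part these transcripts have in the WT1 levels was not tested, and the counts of members at an unadjusted p under 0.05 are given below without WT1 as well. Shares of all genes are given for fits with all libraries only. Counts with a library left out cannot be set against them.

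**Figure D2:**
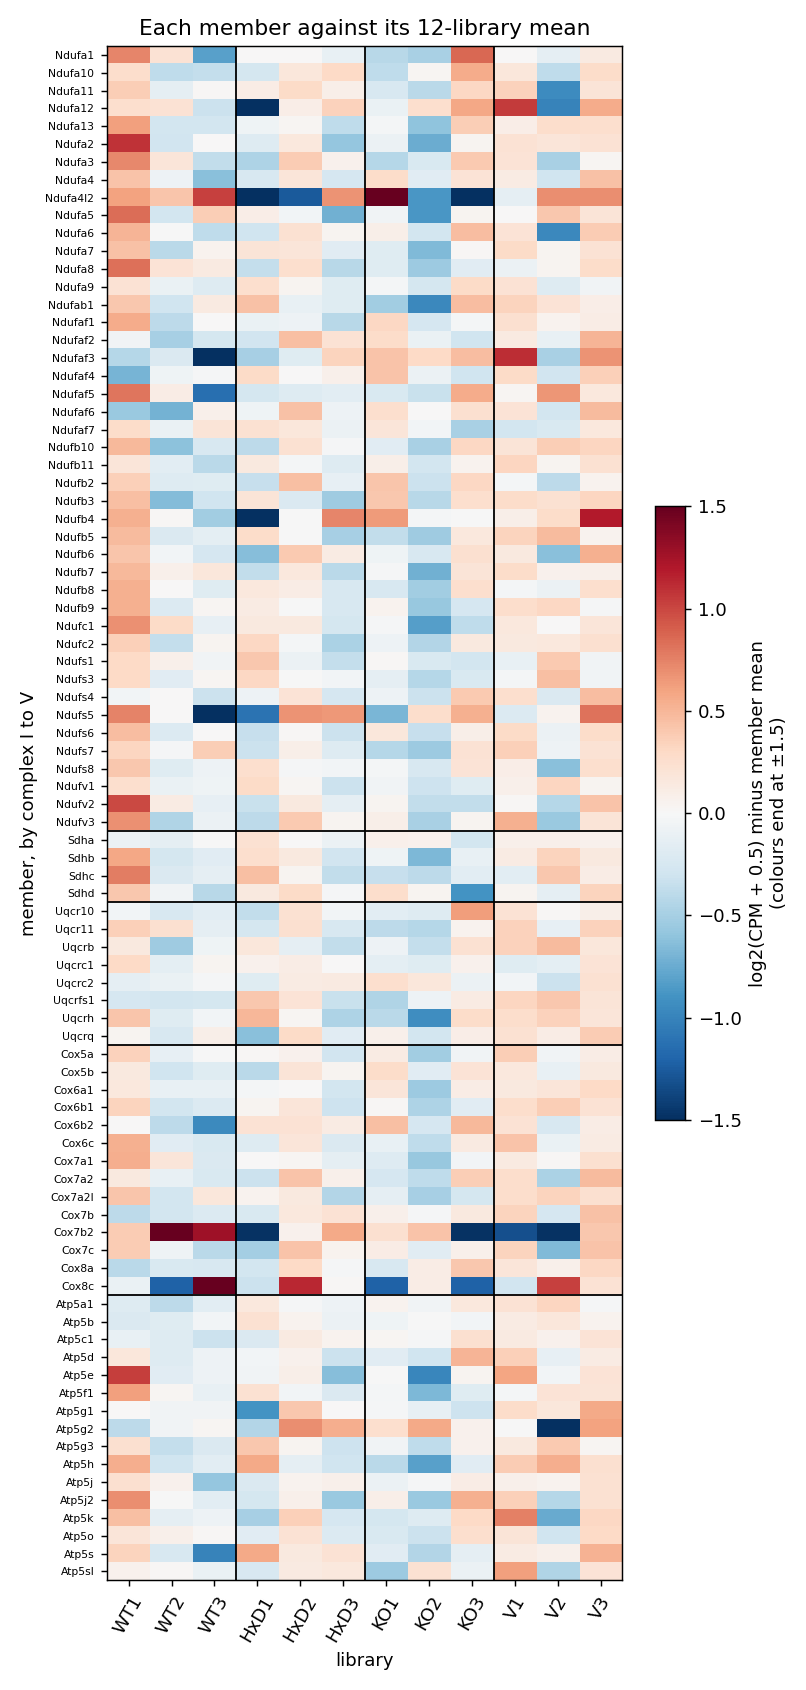
Level of tested members in each library as log2(CPM + 0.5) minus the member's mean over 12 libraries; rows are members ordered by complex, 1 left out, and colours end at ±1.5. The WT1 column is red for most of complex I and the KO2 column mostly blue.

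No member was called in any of the 6 comparisons at an adjusted p under 0.05, by edgeR's quasi-likelihood test, by DESeq2 or by limma-voom. Over all genes tested edgeR called 0.0309% in HxD against WT, 1.22% in KO against WT, 0.155% in V against WT and 0% in each comparison between mutants. DESeq2 called 0.396%, 3.02% and 0.94% of all genes in the comparisons of HxD, KO and V with WT, and 0.161%, 0.124% and 0.0928% in HxD against KO, V against KO and HxD against V. The shares by limma-voom were 0.0928%, 1.16% and 0.124% in HxD, KO and V against WT and 0% between mutants. Intervals were narrower than for most genes. The 95% interval of the fold change lay within 2-fold in both directions for 70 of 87 members in HxD against WT (80.5%), 70 in KO (80.5%) and 76 in V (87.4%), where the shares of all genes tested were 39.5%, 36.2% and 38.1%. The median half-width of the members' intervals was 0.47 on the log2 scale. The 3 comparisons with wild type share the WT libraries, and each is given by its own values.

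In the catalytically dead HxD, the median log2 difference of the members from WT was -0.04, and that of all genes tested -0.01. At an unadjusted p under 0.05, 1 of the 87 members was higher and 5 were lower, where the shares of all genes were 4.65% and 2.6%. All HxD libraries were above all WT libraries for 3 members (Atp5a1, Cox6b2 and Ndufaf4) and below for 0, against 6.43% and 5.77% of all genes. The 5 lower members were all of complex I: Ndufa8, Ndufa2, Ndufa5, Ndufb7 and Ndufv2. Ndufa8, an accessory subunit with twin CX9C motifs, was at 151.6, 98.3 and 94.0 CPM in WT and 66.7, 101.6 and 63.8 CPM in HxD. The HxD libraries overlapped WT through HxD2, and the log2 difference was -0.57 ± 0.22 (SE; edgeR adjusted p = 0.592). Ndufa2, at 160.1 ± 40.4 CPM in HxD and 237.4 ± 127.5 in WT (SD, n = 3), and Ndufa5, at 62.5 ± 17.4 against 92.5 ± 34.5, gave log2 differences of -0.57 as well. Without WT1 these differences were -0.31 for Ndufa8, -0.04 for Ndufa2 and -0.26 for Ndufa5. The 1 higher member, Cox6b2, the testis isoform of a complex IV subunit, was at 44.4, 44.4 and 41.6 CPM in HxD and 38.4, 29.0 and 19.5 CPM in WT. The groups did not overlap, and the log2 difference was 0.58 ± 0.28 (edgeR adjusted p = 0.685). By complex the medians were -0.08 (I), 0.04 (II), 0.01 (III), -0.04 (IV) and 0.02 (V). Without WT1, 0 members were lower and 1 was higher at an unadjusted p under 0.05. The lower count was 0 without HxD3 and 9 without WT2, with no share of all genes taken for these fits. The median of the members was 0.16 without WT1.

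In the knockout, the median log2 difference from WT was -0.11 for the members and -0.02 for all genes. At an unadjusted p under 0.05, 2 members were higher and 11 lower, where the shares of all genes were 7.55% and 5.68%. All KO libraries were above all WT libraries for 5 members (Atp5a1, Atp5c1, Atp5g2, Cox7b and Ndufaf3) and below for 1, against 8.17% and 8.36% of all genes. Complex I gave 6 of the 11: Ndufa8, Ndufc1, Ndufv2, Ndufa2, Ndufa5 and Ndufs7. The others were Sdhc, a membrane anchor of complex II, Cox7a2l, and Atp5e, Atp5f1 and Atp5h of the ATP synthase.

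Ndufa8 was at 75.0, 58.4 and 75.8 CPM in KO against 151.6, 98.3 and 94.0 CPM in WT. It is the 1 member with all 3 KO libraries below all 3 WT libraries. The log2 difference was -0.72 ± 0.22 (edgeR adjusted p = 0.121). Without WT1 it was -0.46 (edgeR adjusted p = 0.593), and over the alternatives run its adjusted p ranged from 0.0323 to 0.593. Ndufv2, a core subunit that carries an iron-sulfur cluster of the NADH-oxidizing module, was at 331.9, 181.0 and 153.4 CPM in WT and 171.5, 129.1 and 128.7 CPM in KO. The log2 difference was -0.63 ± 0.24 (edgeR adjusted p = 0.224), and -0.22 without WT1. Ndufc1, a small membrane subunit, was at 81.4, 61.4 and 46.1 CPM in WT and 49.5, 28.03 and 38.5 CPM in KO, with KO1 above WT3. Its log2 difference was -0.70 ± 0.26 (edgeR adjusted p = 0.205), and -0.47 without WT1.

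Among the other complexes, Atp5f1, a peripheral stalk subunit of the ATP synthase, was at 590.7, 393.2 and 357.3 CPM in WT and 378.1, 241.3 and 339.3 CPM in KO. The log2 difference was -0.48 ± 0.20 (edgeR adjusted p = 0.275), with KO1 above WT3, and it was -0.23 without WT1. Sdhc was at 218.5, 110.0 and 116.5 CPM in WT and 100.9, 97.3 and 115.2 CPM in KO, with KO3 above WT2, for a log2 difference of -0.51 ± 0.24 (edgeR adjusted p = 0.354), and -0.11 without WT1. The 2 members that were higher at an unadjusted p under 0.05 were Cox6b2 and Cox8a. Cox6b2 was at 38.4, 29.0 and 19.5 CPM in WT and 52.3, 32.1 and 53.7 CPM in KO, with a log2 difference of 0.67 ± 0.28 (edgeR adjusted p = 0.298). Cox8a, the ubiquitous form of the smallest subunit of that complex, had a log2 difference of 0.41 ± 0.19.

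The count of lower members in KO rested on few libraries. It was 11 with all libraries, 0 without WT1, 3 without KO2 and 19 without KO3. The shares of all genes were not taken without these libraries. The counts thus show a dependence on libraries, which may not be particular to the members. The count of higher members was 2 with all libraries and 3 without WT1. The members' median moved from -0.11 to 0.09 without WT1. By complex, the medians with all libraries were -0.13 (I), -0.25 (II), 0.04 (III), -0.10 (IV) and -0.07 (V).

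**Figure D3:**
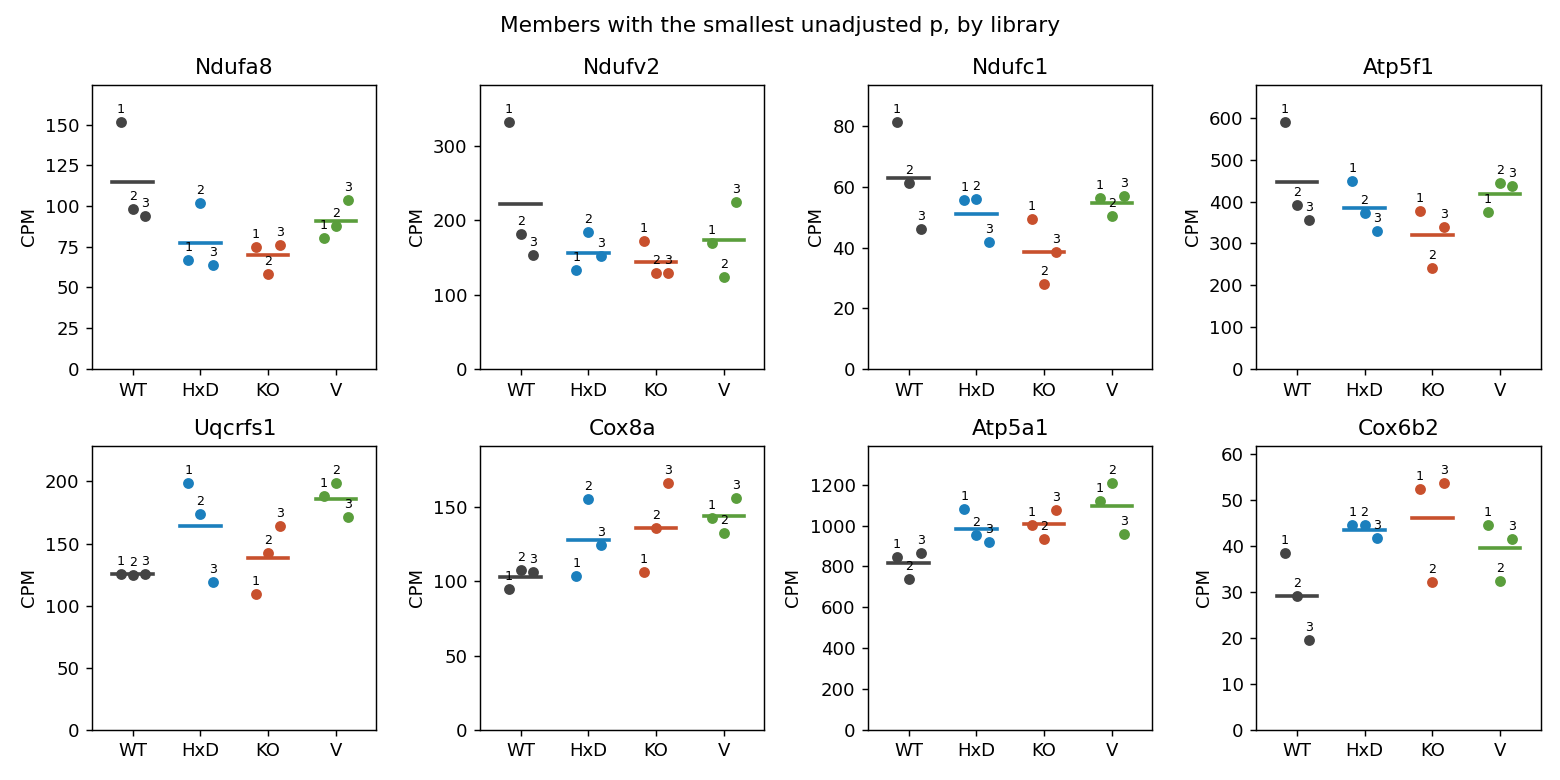
CPM of 8 members with low unadjusted p-values in each library, by group; numbers are replicates and bars are group means. Ndufa8 lies below all WT libraries in all 3 KO libraries, and Uqcrfs1 above all WT libraries in all 3 V libraries.

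In V, the stalling mutant, the median log2 difference from WT was 0.11 for the members and 0.00 for all genes. At an unadjusted p under 0.05, 6 members were higher and 0 lower, where the shares of all genes were 5.65% and 4.04%. The 6 were Uqcrfs1 and Uqcrb of complex III, Cox7b and Cox8a of complex IV, and Atp5a1 and Atp5c1 of complex V. For 10 members all V libraries were above all WT libraries, 11.5% of the 87, and for 0 all were below, where the shares of all genes were 8.7% and 7.48%. Uqcrfs1, the Rieske iron-sulfur protein of complex III, was at 125.6, 124.4 and 125.3 CPM in WT and 188.3, 198.4 and 171.6 CPM in V. The groups did not overlap, and the log2 difference was 0.57 ± 0.19 (edgeR adjusted p = 0.271). It was between 119.1 and 199.0 CPM in HxD and between 109.7 and 164.0 CPM in KO, overlapping WT. Its difference in V was as large without WT1, at 0.58.

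Atp5a1, the alpha subunit of the ATP synthase, was at 845.8, 736.6 and 867.8 CPM in WT and 1122, 1210 and 957.4 CPM in V, without overlap. Its log2 difference was 0.43 ± 0.16 (edgeR adjusted p = 0.353), and 0.27 ± 0.16 and 0.30 ± 0.16 in HxD and KO, whose libraries also lay above all WT libraries. Cox8a was at 94.95, 107.4 and 106.1 CPM in WT and 143.0, 132.5 and 156.4 CPM in V, again without overlap. Cox7b, an accessory subunit of complex IV, was at 116.3, 125.8 and 132.6 CPM in WT and 192.7, 128.7 and 207.8 CPM in V, where V2 fell within the WT range. Uqcrb, a small subunit of complex III, was at 134.6, 84.4 and 116.3 CPM in WT and 155.4, 169.1 and 137.6 CPM in V, and Atp5c1, the gamma subunit that turns within the ATP synthase head, had means of 255.5 ± 19.2 and 324.0 ± 15.8 CPM (SD, n = 3). Both were without overlap, with log2 differences of 0.46 ± 0.20 and 0.34 ± 0.16 (edgeR adjusted p = 0.464 and 0.505). By complex the medians in V were 0.04 (I), 0.09 (II), 0.21 (III), 0.16 (IV) and 0.18 (V).

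The count of 6 became 16 without WT1 and 3 without V1, V3 or WT2, with no share of all genes taken for these fits. The members' median without single libraries ranged from 0.04 to 0.31.

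**Figure D4:**
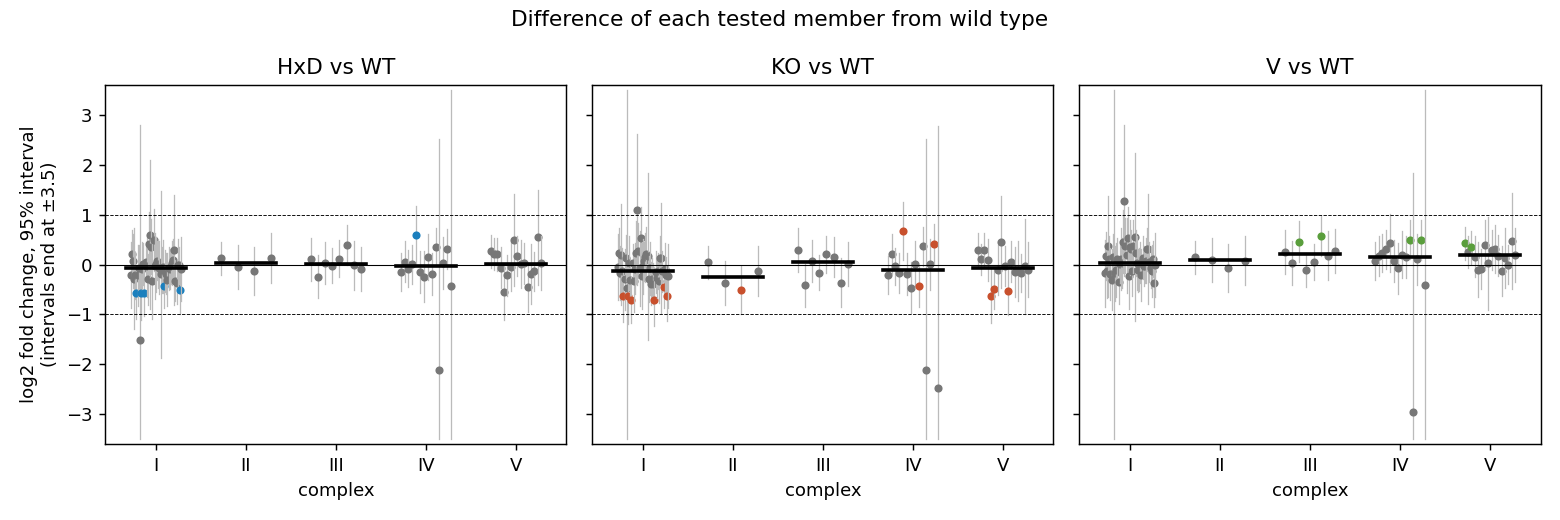
Log2 fold change of each tested member against WT with its 95% interval, by complex, for HxD, KO and V; coloured points have an unadjusted p under 0.05, bars are complex medians and dashed lines mark 2-fold. None of the points passed the adjusted threshold, and medians lie between -0.25 and 0.21.

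Between mutants, V against KO gave the most members at an unadjusted p under 0.05: 10 higher and 0 lower, where the shares of all genes were 2.3% and 2.32%. They came from each complex: Ndufa7, Ndufb5 and Ndufb9, Sdhb, Uqcrfs1, Uqcrh and Uqcr11, Cox6b1 and Cox7a2l, and Atp5h. Atp5h, the d subunit of the ATP synthase stalk, was at 85.1, 63.8 and 100.7 CPM in KO and 146.6, 165.6 and 133.3 CPM in V. The groups did not overlap, and the log2 difference was 0.84 ± 0.24 (edgeR adjusted p = 0.945). The median of the members was 0.22 and that of all genes 0.03, and for 16 members every V library was above every KO library (18.4%, against 6.19% of all genes). For 0 members was every V library below, against 4.92%. Higher levels in V than in KO were not particular to the members. Of 77 mitochondrial ribosomal protein genes 8 were higher and 0 lower at an unadjusted p under 0.05, with a median of 0.19. Of 83 cytoplasmic ribosomal protein genes 7 were higher and 1 lower, with a median of 0.12. The count of 10 was 2 without KO2, 19 without KO3 and 15 without WT1, with no share of all genes taken for these fits. Removing WT1 changes the shared estimate of spread and the genes tested. In HxD against KO 1 member was higher and 0 lower at an unadjusted p under 0.05 (1.92% and 1.26% of all genes), and 2 members were higher and 0 lower without overlap (4.92% and 3.72%). In HxD against V 0 were higher and 1 lower (1.11% and 0.903%), and 0 were higher and 9 lower without overlap (4.57% and 4.53%). Without WT1 the count of 1 lower in HxD against V was 3.

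Of 25 core subunits, those that carry the electron path or the catalytic and proton-carrying parts, 0 were called, with medians of -0.02 in HxD, -0.16 in KO and 0.08 in V. At an unadjusted p under 0.05, 1 was lower and 0 higher in HxD (Ndufv2), where 2.6% and 4.65% of all genes were. In KO 3 were lower (Ndufv2, Ndufs7 and Sdhc) and 0 higher, against 5.68% and 7.55% of all genes, and without WT1 no member was lower. In V 3 were higher (Uqcrfs1, Atp5a1 and Atp5c1) and 0 lower, against 5.65% and 4.04%. Among the 15 tested isoform genes, read against the same shares, 1 was higher and 0 lower in HxD (Cox6b2), 2 were higher (Cox6b2 and Cox8a) and 1 lower (Cox7a2l) in KO, and 2 were higher and 0 lower in V (Cox7b and Cox8a).

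Sdha, the flavoprotein of complex II, had means of 484.9 ± 21.2 CPM in WT, 530.8 ± 60.8 in HxD, 499.2 ± 65.4 in KO and 537.8 ± 1.25 in V (SD, n = 3). Its log2 differences from WT were 0.13 ± 0.16, 0.04 ± 0.16 and 0.15 ± 0.16. Atp5b had means of 2124 ± 140.7, 2463 ± 273, 2284 ± 43.9 and 2536 ± 102.3 CPM in the same order. Uqcrc2, a core protein of complex III, was at 174.1 ± 7.33 CPM in WT and 200.4 ± 23.7 CPM in KO. Ndufaf3, an assembly factor of complex I, had the largest positive difference from WT of the 87 members in each of the 3 mutants. It was at 4.81, 5.63 and 1.99 CPM in WT and 9.08, 8.28 and 9.29 CPM in KO, without overlap. The log2 difference was 1.10 ± 0.74 for KO (edgeR adjusted p = 0.536) and 1.28 ± 0.74 for V (edgeR adjusted p = 0.596). Ndufaf6 had a log2 difference of 0.53 ± 0.30 in both KO and V, with 20.9, 18.9 and 32.7 CPM in WT.

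Isoform balance was described per kilobase of exon, with no test. Cox6b2 was at 20.7%, 23.8% and 15.4% of the level of its somatic partner Cox6b1 in WT, 29.3%, 26.8% and 35.2% in HxD, 35.5% ± 5.62 (SD, n = 3) in KO, and 25.3%, 17.1% and 24.2% in V. The HxD and KO libraries lay above all WT libraries and V overlapped WT. Cox7a1, known from muscle, was at 29.9% to 56.0% of Cox7a2 across the 12 libraries, with overlap of all groups. Cox7b2 was at 2.07%, 9.98% and 3.99% of Cox7b in WT and at 0% to 1.67% in the mutants, but its levels were only 1.31, 6.80 and 2.87 CPM in WT and 0 to 1.57 CPM elsewhere. Its log2 differences of -2.11 ± 2.26 in HxD, -2.12 ± 2.26 in KO and -2.95 ± 2.34 in V did not pass the test (edgeR adjusted p = 0.984, 0.751 and 0.764).

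Reads of members with near-identical copies cannot be assigned with certainty, since how multi-mapping reads were counted is not stated. Pseudogene copies matched 14 members, among them Atp5f1, Atp5h, Cox7a2l and Uqcrb of the members above. These 14 had a median level of 56.0 CPM per kilobase, and the 75 without such a copy 136.1. These levels depend on the 1 transcript taken per gene. Among the 14 its length was 4715 bases for Atp5g1, 3479 for Ndufab1 and 441 for Atp5g2. What part copies or lengths have in the difference was not tested. Exon sequence was shared with another gene that is not a pseudogene by 20 members, such as Atp5f1 with Wdr77 and Atp5a1 with Haus1, and 4 of these 20 are also among the 14. Ndufb4, with 1 such copy, was at 0.423 CPM in HxD1 and 11.04 in HxD3.

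Other mitochondrial lists, apart from the citric acid cycle genes, gave no calls by edgeR. The 6 genes outside the rule gave 0 called in each comparison with WT, and Cox4i1, the main form of complex IV subunit 4, was at 1169, 717.5 and 652.8 CPM in WT. It thus had its highest level in WT1 as well. Of 38 further assembly factors 0 were called, with 1 higher and 2 lower in HxD, 1 higher and 5 lower in KO, and 2 higher and 1 lower in V at an unadjusted p under 0.05, against the shares of all genes above. Of 77 mitochondrial ribosomal protein genes 0 were called, with medians of 0.00, -0.02 and 0.17 in HxD, KO and V. Of 13 genes of the mitochondrial genome, 9 had a count and 8 were tested. None was called, and their sum ran from 4464 CPM in V2 to 17510 in HxD3, a wider range than that of the nuclear members. The 4 with no count were ATP6, ATP8, COX2 and COX3, so the sum lacks them. COX1 of the same genome ran from 1987 CPM in HxD1 to 5648 CPM in HxD3. Whether the annotation or the assignment of reads left the 4 without counts was not tested. Of 14 regulators of the pathway 0 were called. Esrra, an estrogen-related receptor, had the smallest adjusted p in KO, with a log2 difference of 0.64 (edgeR adjusted p = 0.223), and Nrf1 had 0.31. The 11 tested members with NRF1 letters in their promoter had medians of -0.08, -0.13 and 0.03 in HxD, KO and V, and the 60 without -0.02, -0.08 and 0.14.

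Calls were made among genes of glycolysis and the citric acid cycle, which feed the respiratory chain. In KO, 3 of 20 glycolysis genes were called higher and 0 lower: Hk1, which phosphorylates glucose, by 1.21 on the log2 scale (edgeR adjusted p = 0.0147), the lactate dehydrogenase subunit Ldhb by 0.76 (edgeR adjusted p = 0.0260), and the glucose transporter Slc2a3 by 1.13 (edgeR adjusted p = 0.0340). Of all genes tested, 1.22% were called in KO by edgeR, both directions together. In HxD and V edgeR called 0 of the 20 with all libraries. Without single libraries it called 0 to 3 higher in HxD and 0 to 5 in V. DESeq2 called 4 higher in KO, 2 in HxD and 2 in V, where it called 3.02%, 0.396% and 0.94% of all genes in both directions. The list median was 0.47 in KO, 0.29 in HxD and 0.27 in V. At an unadjusted p under 0.05, 10, 5 and 6 of the 20 genes were higher and 0 lower. The shares of all genes in the same order were 7.55%, 4.65% and 5.65% higher and 5.68%, 2.6% and 4.04% lower. The sum of the list was 2335, 2824 and 3286 CPM in WT and 3425, 4103 and 4196 CPM in KO, where WT1 was the lowest library of all 12. The 3 calls in KO became 0 without WT1 or without WT2, 1 without KO2 or KO3, and 5 without WT3. They were also 0 when only KO and WT were fitted. Of 16 citric acid cycle and pyruvate dehydrogenase genes, Pdha1 was called in KO, by 0.69 (edgeR adjusted p = 0.0452), and was not called without WT1, WT2, KO1, KO3 or V3. Whether the members and the glycolysis genes differ in their response was not tested.

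**Figure D5:**
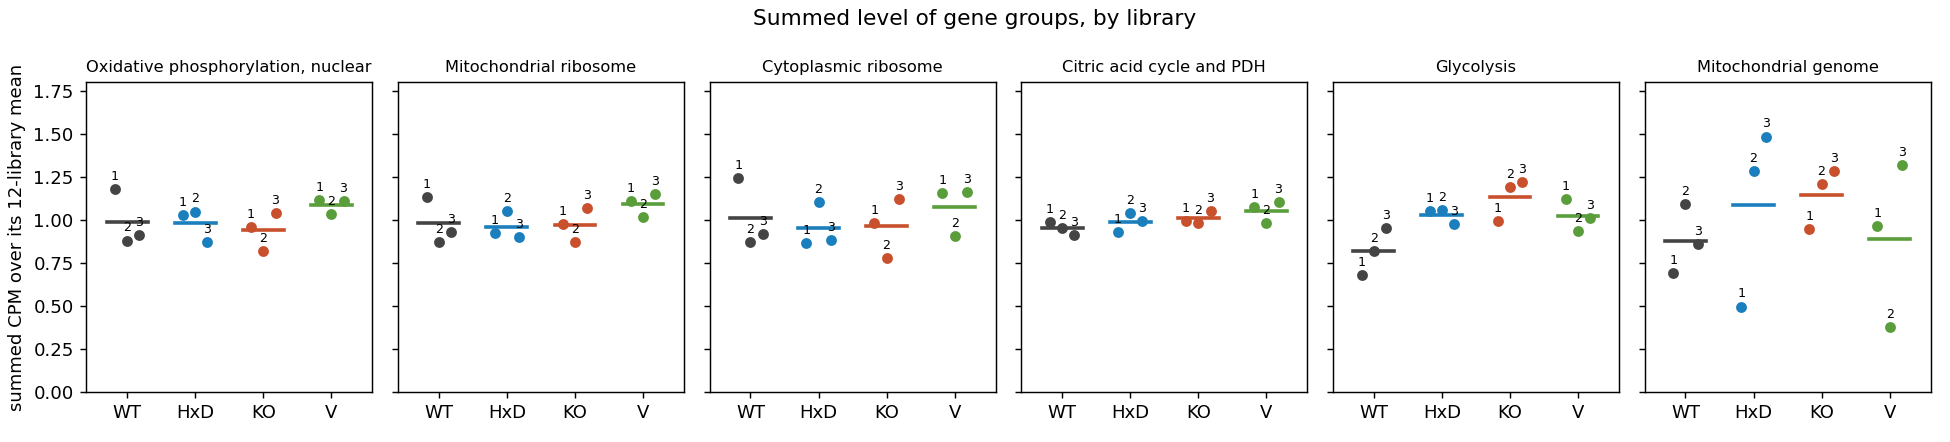
Summed CPM of 6 gene groups in each library, divided by the group's mean over 12 libraries; numbers are replicates and bars are group means. WT1 is high for the nuclear oxidative phosphorylation genes and both ribosome lists and lowest for glycolysis, and the mitochondrial genome varies most.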

How the data were processed

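RNA from sorted germ cells was read as poly(A) libraries (oligo d(T) beads, NEB kit, per the labels' protocols). The authors deposited whole-number counts per gene symbol for 12 libraries, not normalized. The submitters' processing notes name STAR 2.7.10b, featureCounts 2.0.3, Trim Galore 0.6.7, SAMtools 1.9 and FastQC, with GRCm39 and mm10 and no role for either. The annotation, the strand setting and the multi-mapping rule are not given in these sources. Antisense and overlapping genes could not be told apart.

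Groups and replicate numbers came from sample titles. The main test was edgeR 4.0.16 (R 4.3.3; quasi-likelihood F test, two-sided; TMM; default filterByExpr; all 12 libraries, group as the only term), with Benjamini-Hochberg adjustment over 16166 genes and a threshold of 0.05. Values are TMM-scaled CPM, mean ± SD with n = 3. Standard errors are the log2 estimate over the square root of F. Alternatives were limma-voom (limma 3.58.1) and DESeq2 1.42.0, beside other normalizations, filters, left-out libraries and a replicate block. The procedure was run on simulated counts drawn gene by gene, without shifts shared by many genes of a library. It therefore cannot tell how the procedure behaves under shifts such as those of WT1 and KO2.

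Members named are core subunits, tissue isoforms, the member with the smallest p of each complex, those with a mean of at least 5 CPM and the largest differences, and those with low p. The members and lists were chosen with earlier results of these data known. Replicates differed by more than sampling noise (lowest chi-square over its degrees of freedom 27.27). Exon lengths came from 1 principal transcript per gene (89 of 90 members) and copies from blastn 2.17.0. Counts carried no molecular identifiers, so floors cover counting error only. The values of 1 member enter all summaries but are not reported here.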

Additional observations from a re-analysis of the deposited data

How the results depend on the processing

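No member was called in HxD against WT, V against WT, HxD against KO or HxD against V under any of the 20 alternatives. In KO against WT, 4 members were called with no filter on low counts (Ndufa8, Ndufv2, Ndufa2 and Atp5e, all lower). Leaving out 1 library at a time gave 0 to 1, the 1 being Ndufv2 without WT3. The shares of all genes called were not taken for these fits, so whether the members exceed them cannot be told. With KO1, KO3 and HxD1 left out together, KO is KO2 alone, assumed to vary like the other groups. The members' median was then -0.367 in KO against WT and 0.516 in V against KO. In V against KO, members were called under that alternative alone. Calls that rest on KO2 alone are not counted here. Leaving out 1 library moved the members' median from -0.14 to 0.16 in HxD, -0.22 to 0.09 in KO and 0.04 to 0.31 in V, so its sign changed in HxD and KO. DESeq2 size factors gave -0.08, -0.15 and 0.08. Among named members, the differences newly called with more than 1 KO library were Ndufa8 and Ndufv2 with no filter and Ndufv2 without WT3. All were in KO against WT. The other recomputed differences of named members in those fits stayed uncalled.

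With the replicate number as a block, 0 members were called in each of the 6 comparisons. No pairing by number was seen over all genes tested. None of 18 same-number pairs had a correlation over 0.1 (-0.08 to 0.05), and 2 of 12 libraries correlated best with their own number. This check could miss a shared factor that moves few genes, and the labels do not say what a number shares.

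With 3 libraries a group, the median half-width of a member's interval was 0.47 on the log2 scale; this is an unadjusted 95% interval, and differences above it were not called either.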
